A study of Mus musculus with 6 samples.

Results

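The glycolysis genes described here comprise glucose and lactate transporters, the enzymes of each glycolytic step with their isoforms, and the pyruvate dehydrogenase kinases. They were chosen by gene symbol, and all 37 were found among the 30587 rows of the deposited count table. RNA sequencing had been used to compare dendritic cells grown from the bone marrow of C57BL/6 mice of 2 genotypes. The KO cells (3 libraries) came from CD11c-Cre;Hif2a fl/fl mice, in which a Cre transgene under the CD11c promoter recombines the loxP-flanked Hif2a gene (official symbol Epas1), which encodes HIF-2α. The WT cells (3 libraries) came from Hif2a fl/fl mice, which carry the floxed alleles without Cre. Every culture of both genotypes was incubated for 24 h with dimethyloxalylglycine (DMOG), a drug that blocks the prolyl hydroxylases behind HIF breakdown, and then received α-galactosylceramide, a glycolipid presented by CD1d, for 4 h. No untreated culture was analysed here, so all values describe DMOG-treated cells. The labels give no age, and they do not say whether the 3 libraries of a genotype came from separate mice, from pooled marrow or from separate dishes. The p-values therefore rest on library-to-library spread only, part of which may be technical.

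Glycolysis splits glucose into pyruvate in the cytosol. Most of its steps are served by several isoforms that differ in tissue distribution and regulation. Many of these genes are known targets of hypoxia-inducible factors, which bind a short DNA core, the hypoxia response element. HIF-1α is known as the main HIF subunit acting on glycolytic genes in many cell types. Dendritic cells are known to raise their glycolytic rate when activated.

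Total counts ran from 14668641 to 17884160 reads per library, with a read in 18763 to 25408 rows, the highest of these in WT 2. Epas1, the targeted gene, had 9.59, 12.7 and 11.5 CPM (reads scaled to a common depth) in KO libraries, against 20.1, 22.8 and 23.8 CPM in WT libraries. The KO libraries all lay below the WT libraries, at a log2 fold change of -0.98 ± 0.12 (SE, n = 3 each; edgeR adjusted p = 3.45e-05). Gene counts also include reads outside the deleted part of Epas1. Hif1a, the other HIF α subunit gene, averaged 112 ± 3.27 CPM in KO and 76.6 ± 3.71 CPM in WT libraries (SD, n = 3 each), a 1.46-fold higher level (edgeR adjusted p = 9.97e-06). The dendritic cell markers summed to 4049 to 4193 CPM in KO and 4902 to 5063 CPM in WT libraries. Of 9 tested, 3 were higher in KO (Flt3, Zbtb46 and Irf8) and 4 lower (Cd74, H2-Ab1, Ciita and Irf4). Most of the sum was Cd74, with means of 2190 CPM in KO and 2697 CPM in WT libraries, and H2-Ab1, with 1016 and 1428 CPM. The sum therefore mainly follows these genes and not the list as a whole. The macrophage markers summed to 3466 to 3949 CPM in KO and 3381 to 3603 CPM in WT libraries, with 4 of 8 higher in KO. The mast cell and basophil markers, mainly Kit, summed to 74.2 to 79.2 CPM in KO and 46.0 to 51.9 CPM in WT libraries, with 2 of 3 tested higher in KO. These were Kit and Mcpt8, the latter with only 21, 20 and 19 reads in KO and 6, 4 and 3 reads in WT libraries. Neutrophil markers summed to 22.2 to 33.8 CPM in KO and 20.7 to 30.8 CPM in WT libraries, with 1 of 3 tested higher. That was Camp, with only 32, 30 and 24 reads in KO and 14, 7 and 5 reads in WT libraries. S100a8 and S100a9 overlapped. The T cell, B cell, NK cell and red cell lists each stayed at or under 2.25 CPM in every library. Ncr1, Prf1 and Hbb-bs of these lists were not measured here. In bulk RNA, fewer cells of a type and less RNA per cell cannot be told apart, and the part of these marker differences in the results was not tested.

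Glycolytic RNA was lower in KO cells at nearly every step of the pathway. Of the 35 glycolysis genes with enough reads for a test, 22 fell, 2 rose and 11 were not called at an adjusted p under 0.05. Of all 13249 tested genes 25.8% were called, 12.0% as lower and 13.8% as higher. The members' median log2 fold change was -0.55, and that of all tested genes was -0.01. In 26 of the 35 genes every KO library lay below every WT library, in 3 every KO library lay above, and in 6 the genotypes overlapped, where 40.4% of all tested genes showed no overlap in either direction. Falls of at least 2-fold were called for 4 genes, Pgk1, Pdk1, Slc2a1 and Aldoc, against 1.38% of all tested genes. The 2 genes that rose were Pfkfb3 and Pfkfb4. The remaining 2 of the 37 had almost no reads. Fbp1, which runs the phosphofructokinase step backwards in gluconeogenesis, had 0 reads in each KO library and 0, 2 and 0 reads in WT libraries. Pdk4 had 2, 0 and 0 reads in KO libraries and 0, 1 and 0 reads in WT libraries. Together the 37 genes took 1.48%, 1.43% and 1.49% of all reads in KO libraries, against 2.48%, 2.47% and 2.43% in WT libraries. These shares did not overlap (exact two-sided permutation test over 20 splits, p = 0.1, the smallest this design allows).

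**Figure D1:**
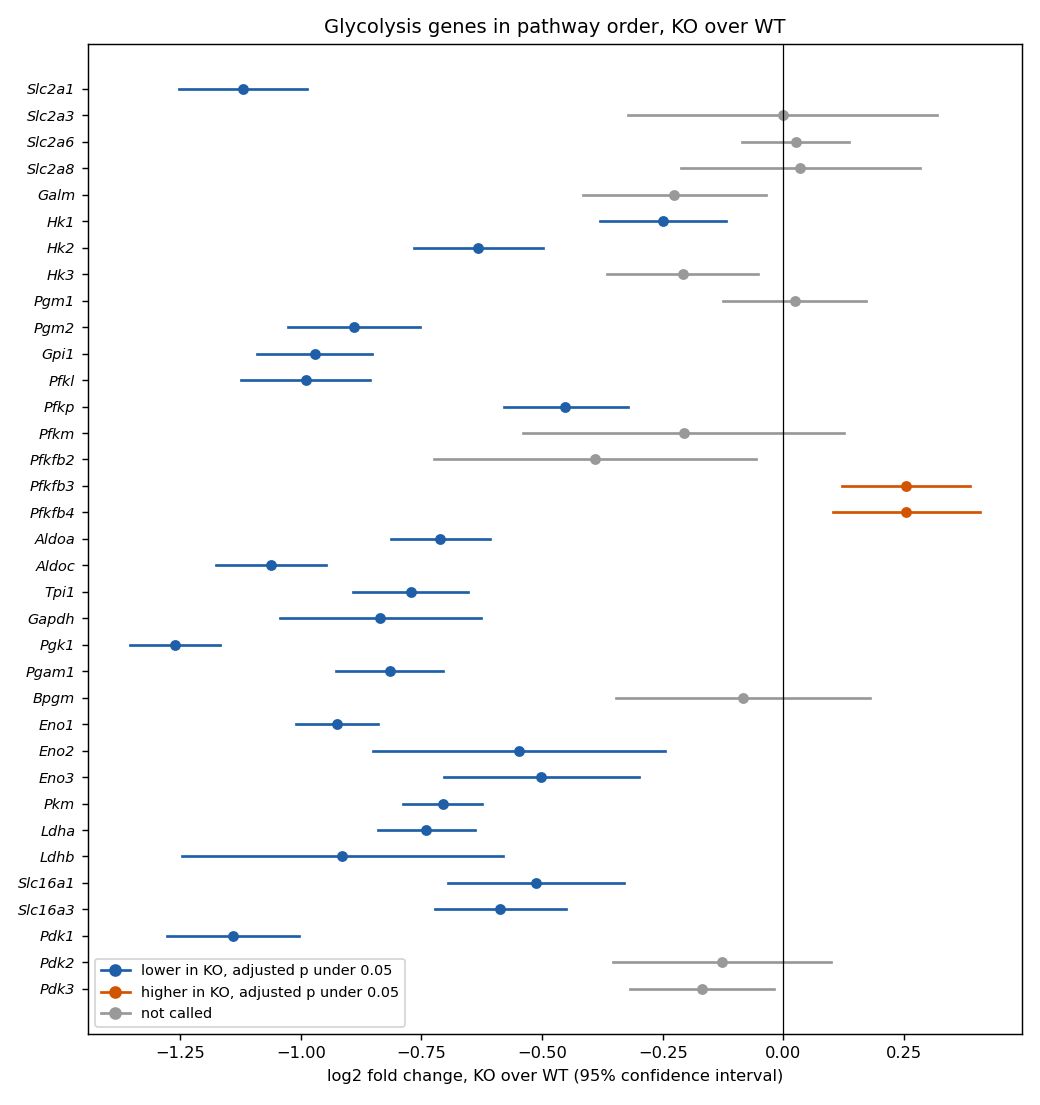
Log2 fold change of KO over WT for each of the 35 tested glycolysis genes, in pathway order from glucose uptake to the pyruvate dehydrogenase kinases; points are estimates from edgeR, bars are 95% confidence intervals and colour marks the call. The falls run down to -1.26 for Pgk1, and only Pfkfb3 and Pfkfb4, both at 0.25, are called higher.

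The promoters of the genes with the largest falls and of those that rose are shown to set their sequences beside their opposite changes. Each sequence is the 250 bases before a transcription start, read 5′ to 3′ on the gene's strand, from RefSeq on GRCm38.p6 (the mm10 build). Capitals mark the hypoxia response element core, ACGTG or GCGTG, on either strand, with overlapping matches merged. Slc2a6, which was not called, is added for comparison.
Pgk1, chrX:106186850-106187099, plus strand: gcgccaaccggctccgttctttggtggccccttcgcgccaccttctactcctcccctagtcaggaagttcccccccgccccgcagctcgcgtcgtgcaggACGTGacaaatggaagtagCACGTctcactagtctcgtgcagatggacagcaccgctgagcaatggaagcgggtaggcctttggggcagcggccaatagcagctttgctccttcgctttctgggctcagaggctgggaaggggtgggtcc
Pdk1, chr2:71872974-71873223, plus strand: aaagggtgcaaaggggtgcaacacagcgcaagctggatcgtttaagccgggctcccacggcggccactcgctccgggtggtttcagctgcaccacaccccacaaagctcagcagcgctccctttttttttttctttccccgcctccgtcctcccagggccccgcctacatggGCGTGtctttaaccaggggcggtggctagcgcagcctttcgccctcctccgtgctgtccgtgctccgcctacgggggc
Slc2a1, chr4:119108495-119108744, plus strand: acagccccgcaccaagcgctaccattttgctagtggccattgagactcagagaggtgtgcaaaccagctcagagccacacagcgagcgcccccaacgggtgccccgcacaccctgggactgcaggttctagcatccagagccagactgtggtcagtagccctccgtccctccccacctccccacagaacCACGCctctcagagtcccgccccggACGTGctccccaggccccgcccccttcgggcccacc
Aldoc, chr11:78322823-78323072, plus strand: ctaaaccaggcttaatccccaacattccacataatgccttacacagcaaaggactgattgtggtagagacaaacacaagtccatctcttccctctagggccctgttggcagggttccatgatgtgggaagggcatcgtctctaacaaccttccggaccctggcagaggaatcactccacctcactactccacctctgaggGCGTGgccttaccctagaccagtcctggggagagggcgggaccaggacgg
Pfkfb3, chr2:11553930-11554179, minus strand: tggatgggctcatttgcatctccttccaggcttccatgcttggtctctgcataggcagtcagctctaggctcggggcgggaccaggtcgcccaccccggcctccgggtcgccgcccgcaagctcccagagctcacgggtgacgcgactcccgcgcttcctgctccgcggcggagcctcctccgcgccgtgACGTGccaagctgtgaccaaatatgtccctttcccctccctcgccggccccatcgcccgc
Pfkfb4, chr9:108991652-108991901, plus strand: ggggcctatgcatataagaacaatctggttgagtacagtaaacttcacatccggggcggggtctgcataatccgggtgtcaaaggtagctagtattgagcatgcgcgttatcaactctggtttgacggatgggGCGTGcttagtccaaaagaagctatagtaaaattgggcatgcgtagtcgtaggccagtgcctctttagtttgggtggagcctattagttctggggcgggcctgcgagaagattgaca
Slc2a6, chr2:27027999-27028248, minus strand: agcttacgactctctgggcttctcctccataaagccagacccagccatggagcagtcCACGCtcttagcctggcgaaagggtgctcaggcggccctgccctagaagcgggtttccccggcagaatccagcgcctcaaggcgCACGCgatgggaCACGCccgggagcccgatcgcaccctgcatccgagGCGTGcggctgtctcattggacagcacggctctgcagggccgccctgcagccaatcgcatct
The core stood 150 and 131 bases before the start in Pgk1, 78 in Pdk1, 61 and 36 in Slc2a1 and 50 in Aldoc. It stood 60 bases before the start in Pfkfb3 and 117 in Pfkfb4. The window of Slc2a6 held 4 matches. RefSeq lists a further start for 3 of these genes, not printed here, whose windows held the core 122 and 53 bases before it in Pfkfb3, 39 before it in Aldoc and nowhere in Pdk1. RefSeq promoters were matched for 35 of the 37 genes, with 51 start sites in all. The core was present in at least 1 window of 19 of the 22 genes that fell and of both genes that rose. It was also present in 8 of the 9 matched genes that were tested and not called. By gene, 30 of the 35 matched glycolysis genes (85.7%) held it, against 61.2% of the 9697 tested genes with a matched promoter. By window, 40 of the 51 (78.4%) held it, against 55.2% of the windows of tested genes and 38.6% of all windows. A match to 5 letters is a description of the sequence and not a binding site.

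Of the 4 chosen glucose carriers, 1 fell. Slc2a1 encodes GLUT1, the widespread glucose carrier, and lies at chr4:119108711-119137983 (mm10, plus strand). It had 233, 230.0 and 245 CPM in KO libraries, against 512, 518 and 508 CPM in WT libraries. Its groups lay far apart, at 2.17-fold lower in KO (log2 -1.12 ± 0.06, SE; edgeR adjusted p = 2.36e-08). Slc2a6 encodes GLUT6, a carrier found on internal membranes. It had 109.6, 112.9 and 109.9 CPM in KO libraries, against 108.8, 109.2 and 108.7 CPM in WT libraries. The KO libraries of Slc2a6 were all slightly above the WT libraries, but the difference was not called, with a 95% interval of -0.09 to 0.14 on the log2 scale. Slc2a8, which encodes the intracellular carrier GLUT8, averaged 12.98 ± 0.46 CPM in KO and 12.7 ± 1.70 CPM in WT libraries (SD, n = 3 each; interval -0.21 to 0.28). Slc2a3, the high-affinity carrier GLUT3, averaged 6.98 ± 0.61 CPM in KO and 6.97 ± 1.03 CPM in WT libraries (interval -0.32 to 0.32). Galm interconverts the α and β forms of sugars. It had 22.3, 23.9 and 26.1 CPM in KO libraries, against 28.6, 26.5 and 29.5 CPM in WT libraries, which did not overlap but did not pass (edgeR adjusted p = 0.0771).

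Hexokinases trap glucose by phosphorylation, and 2 of the 3 fell, the inducible Hk2 most. Hk2, at chr6:82725025-82774454 on the minus strand, had 121, 128 and 122 CPM in KO libraries, against 185, 186 and 203 CPM in WT libraries. No KO library came near the WT range, and the level was 1.55-fold lower (log2 -0.63 ± 0.06; edgeR adjusted p = 5.98e-06). Hk1, the constitutive form, averaged 193 ± 7.51 CPM in KO and 230 ± 3.62 CPM in WT libraries (SD, n = 3 each), a log2 fold change of -0.25 ± 0.06 (SE; edgeR adjusted p = 0.00805). Hk3, the isoform typical of myeloid cells, had 285, 342 and 327 CPM in KO libraries, against 368, 369 and 366 CPM in WT libraries. The KO libraries of Hk3 lay below the WT libraries with a wide spread led by a low KO 1, and the change missed the threshold (log2 -0.21 ± 0.07; edgeR adjusted p = 0.0505). It passed without KO 2 (log2 -0.26), did not pass with any other library left out, and shrank to log2 -0.13 without KO 1 (edgeR adjusted p = 0.135).

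The next enzymes handle hexose phosphates. Phosphoglucomutase links glycolysis to glycogen. The row named Pgm2 had 82.6, 73.7 and 78.7 CPM in KO libraries, against 147, 152 and 136 CPM in WT libraries, a 1.85-fold lower level (edgeR adjusted p = 2.76e-07). The row named Pgm1 had 41.2, 41.0 and 39.5 CPM in KO libraries, against 41.0, 37.7 and 41.1 CPM in WT libraries, and its groups overlapped (95% interval of the log2 fold change -0.13 to 0.17). RefSeq lists each of these symbols as a former name of the other, and 490 rows of the table carry names that RefSeq holds only as synonyms, so which of the 2 genes fell is not settled by its symbol. Gpi1 turns glucose phosphate into fructose phosphate, and lies at chr7:34201330-34230336 on the minus strand. It had 834, 751 and 815 CPM in KO libraries, against 1568, 1611 and 1524 CPM in WT libraries. These groups lay far apart, at 1.96-fold lower in KO (log2 -0.97 ± 0.06; edgeR adjusted p = 3.11e-08).

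Phosphofructokinase commits the sugar to glycolysis, and its liver-type and platelet-type subunits both fell. Pfkl, the liver type, at chr10:77986947-78010083 on the minus strand, had 207, 192 and 198 CPM in KO libraries, against 388, 396 and 401 CPM in WT libraries. Pfkp, the platelet type, had 193, 204 and 201 CPM in KO libraries, against 273, 271 and 276 CPM in WT libraries. Neither gene's groups overlapped, with Pfkl 1.99-fold and Pfkp 1.37-fold lower (log2 -0.99 ± 0.06 and -0.45 ± 0.06; edgeR adjusted p = 8.07e-08 and 9.76e-05). Pfkm, the muscle type, averaged 7.30 ± 0.96 CPM in KO and 8.44 ± 1.36 CPM in WT libraries (SD, n = 3 each; log2 interval -0.54 to 0.13). The 2 aldolases, which cut the hexose, both fell. Aldoa had 1562, 1448 and 1528 CPM in KO libraries, against 2454, 2579 and 2393 CPM in WT libraries (1.64-fold lower; edgeR adjusted p = 1.46e-07). Aldoc, best known from brain and at chr11:78322968-78327781 on the plus strand, had 60.9, 65.3 and 64.1 CPM in KO libraries, against 133, 130 and 134 CPM in WT libraries. The libraries of each genotype lay close together, at 2.09-fold lower in KO (log2 -1.06 ± 0.05; edgeR adjusted p = 8.91e-09).

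The PFKFB enzymes, which make and remove the activator of phosphofructokinase fructose-2,6-bisphosphate, were the only step that rose. Pfkfb3, the strongly kinase-biased form, lies at chr2:11471433-11554077 on the minus strand. It had 684, 638 and 660.4 CPM in KO libraries, against 580.4, 523 and 559 CPM in WT libraries. All KO libraries were above all WT libraries, but the rise was modest at 1.19-fold (log2 0.25 ± 0.06; edgeR adjusted p = 0.00806). Pfkfb4, at chr9:108991778-109032228 on the plus strand, had 50.4, 57.3 and 58.6 CPM in KO libraries, against 46.1, 45.2 and 48.1 CPM in WT libraries. It too was 1.19-fold higher without overlap (log2 0.25 ± 0.07; edgeR adjusted p = 0.018). Its call was lost without KO 2, KO 3, WT 1 or WT 2, at log2 fold changes of 0.23, 0.21, 0.26 and 0.24. With offsets for GC content and length it was lost at a smaller 0.14, and the adjusted p ran from 0.0023 to 0.137 over the alternatives. Pfkfb2, the heart form, had 4.11, 4.50 and 4.18 CPM in KO libraries, against 4.97, 5.70 and 6.14 CPM in WT libraries. It lay below WT in every KO library, opposite to the other two, but was not called (edgeR adjusted p = 0.081).

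Of the chosen genes for the steps from the triose phosphates to pyruvate, all 8 outside the Bpgm side branch fell, by log2 fold changes of -1.26 to -0.50. Pgk1, which makes the first ATP of the pathway, lies at chrX:106187100-106203699 on the plus strand. It had 1256, 1249 and 1285 CPM in KO libraries, against 3028, 3124 and 2928 CPM in WT libraries. It had the largest fall of the 35 genes, 2.40-fold (log2 -1.26 ± 0.04; edgeR adjusted p = 3.63e-10). Eno1, the ubiquitous enolase, at chr4:150236721-150248879 on the plus strand, had 2331, 2266 and 2350 CPM in KO libraries, against 4416, 4550 and 4213 CPM in WT libraries. Its groups lay 1.90-fold apart (log2 -0.92 ± 0.04; edgeR adjusted p = 2.11e-09). Pgam1, phosphoglycerate mutase, had 790.2, 832 and 853 CPM in KO libraries, against 1440, 1434 and 1481 CPM in WT libraries (1.76-fold lower; edgeR adjusted p = 8.19e-08). Tpi1, triosephosphate isomerase, had 699, 664 and 716 CPM in KO libraries, against 1209, 1207 and 1134 CPM in WT libraries (1.71-fold lower; edgeR adjusted p = 2.86e-07). Pkm, pyruvate kinase, whose 2 splice forms gene counts do not separate, had 2296, 2324 and 2415 CPM in KO libraries, against 3842, 3894 and 3743 CPM in WT libraries. That put it 1.63-fold lower in KO (edgeR adjusted p = 1.97e-08).

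The minor enolases fell less surely. Eno3, the muscle form, had 20.8, 17.2 and 18.0 CPM in KO libraries, against 27.7, 26.2 and 25.4 CPM in WT libraries (log2 -0.50 ± 0.09; edgeR adjusted p = 0.00155). Eno2, the neuronal form and a known hypoxia-responsive gene, had 9.10, 8.65 and 8.41 CPM in KO libraries, against 15.3, 10.4 and 12.4 CPM in WT libraries. The WT libraries of Eno2 were spread and the call (log2 -0.55 ± 0.14; edgeR adjusted p = 0.0117) was lost without KO 3 (log2 -0.52) or without WT 1 (log2 -0.38). Bpgm, which makes bisphosphoglycerate in a side branch best known from red cells, averaged 9.18 ± 0.96 CPM in KO and 9.74 ± 0.36 CPM in WT libraries (SD, n = 3 each) and was not called (log2 interval -0.35 to 0.18).

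Gapdh, a usual reference gene, also fell, and most of the reads that match it were counted in other rows. Its own row had 3493, 3666 and 3064 reads in KO libraries, against 5479, 6212 and 4688 reads in WT libraries. The row of Gm7336, a processed pseudogene identical to Gapdh at 99.8% of 1232 aligned bases, had 8573, 7736 and 8392 reads in KO libraries, against 13706, 12584 and 11924 reads in WT libraries. The row of a second such copy, Gm5559 (99.9% of 1002 bases), had 4089, 3383 and 3640 reads in KO libraries, against 6669, 6564 and 5370 reads in WT libraries. Both pseudogene rows thus moved like the parent gene, and the Gapdh row held 21.4% of the reads of the parent and its 70 copies in the table. Counts of reads in such near-identical copies are uncertain, since the treatment of reads with several alignments is not given in the sources used here. On its own row Gapdh was 1.78-fold lower in KO (log2 -0.84 ± 0.10; edgeR adjusted p = 2.94e-05). With the copies added, the sum averaged 913 ± 4.63 CPM in KO and 1621 ± 76.8 CPM in WT libraries (SD, n = 3 each), also 1.78-fold lower (log2 -0.83 ± 0.05; edgeR adjusted p = 7e-08). The level on the Gapdh row leaves out the reads counted in its copies, and adding them moved the log2 fold change by less than its SE. Copies of 8 other glycolysis genes held at most 4.05% of the joint reads, that of Eno1.

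**Figure D2:**
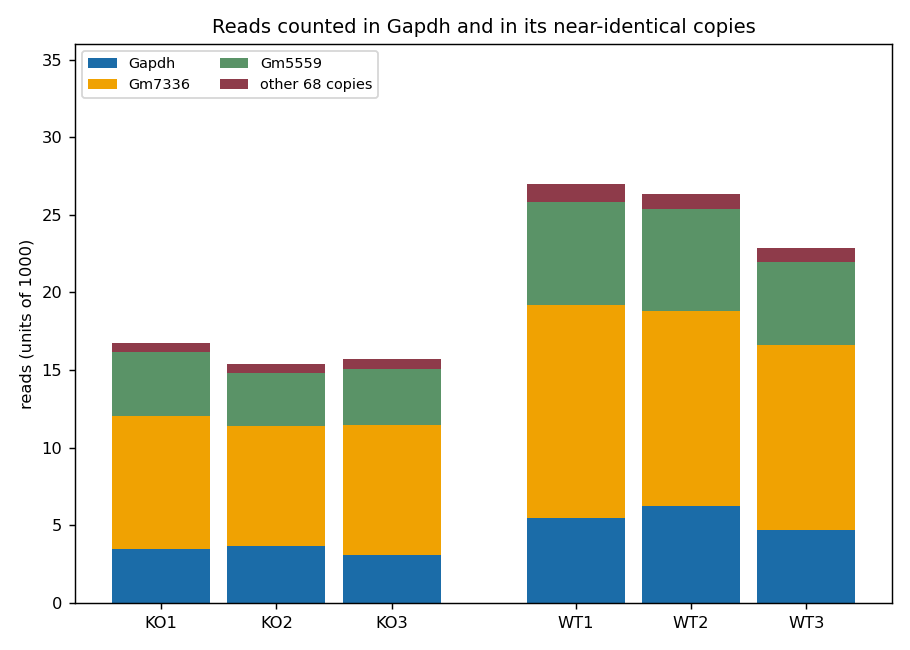
Reads per library (in units of 1000) counted in the Gapdh row, in the rows of the pseudogenes Gm7336 and Gm5559 and in 68 other copies, stacked for 3 KO and 3 WT libraries, not scaled for depth. The Gapdh row holds 21.4% of the reads in KO libraries and 21.5% in WT libraries, and every part of the stack is smaller in KO libraries.

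All 4 of the chosen genes for lactate, the lactate dehydrogenase subunits Ldha and Ldhb and the carriers Slc16a3 and Slc16a1, fell. Ldha, the subunit that favours lactate formation, lies at chr7:46841475-46855627 on the plus strand. It had 1658, 1593 and 1686 CPM in KO libraries, against 2781, 2852 and 2611 CPM in WT libraries, a 1.67-fold lower level (log2 -0.74 ± 0.05; edgeR adjusted p = 8.02e-08). Ldhb, the heart-type subunit, was scarce, with 8.06, 5.80 and 6.90 CPM in KO libraries, against 11.8, 15.7 and 11.7 CPM in WT libraries. It was 1.88-fold lower with a wider error (log2 -0.91 ± 0.15; edgeR adjusted p = 0.000731). Slc16a3, the lactate exporter MCT4, had 369, 339 and 377 CPM in KO libraries, against 553, 541 and 537 CPM in WT libraries (log2 -0.59 ± 0.06; edgeR adjusted p = 1.54e-05). Slc16a1, the bidirectional carrier MCT1, had 18.2, 19.4 and 17.7 CPM in KO libraries, against 27.2, 26.3 and 25.4 CPM in WT libraries (1.43-fold lower; edgeR adjusted p = 0.000601).

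Pyruvate dehydrogenase kinases inhibit pyruvate dehydrogenase, which turns pyruvate into acetyl-CoA inside the mitochondrion, and 1 of the 3 tested fell. Pdk1, a known hypoxia-responsive gene at chr2:71873224-71903858 on the plus strand, had 76.7, 68.0 and 71.9 CPM in KO libraries, against 168, 158 and 151 CPM in WT libraries. Its groups were far apart, at 2.21-fold lower in KO (log2 -1.14 ± 0.06; edgeR adjusted p = 2.7e-08). Pdk3 had 43.2, 41.0 and 38.0 CPM in KO libraries, against 46.4, 44.9 and 46.1 CPM in WT libraries. It was slightly lower in each KO library but not called (log2 interval -0.32 to -0.02; edgeR adjusted p = 0.0917), and passed without KO 1. Pdk2 averaged 15.2 ± 1.67 CPM in KO and 16.6 ± 0.95 CPM in WT libraries (SD, n = 3 each), with overlap (log2 interval -0.35 to 0.10).

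With the chosen isoforms of each step added together and the table refitted, 15 of 16 steps fell and 1 rose, against 11.9% of the rows of that table called lower and 13.8% called higher. The median over the steps was -0.76 on the log2 scale. The largest fall was at phosphoglycerate kinase, a single gene, and the smallest at hexokinase, which averaged 635 ± 39.0 CPM in KO and 789 ± 10.5 CPM in WT libraries (log2 -0.31 ± 0.06; edgeR adjusted p = 0.00182). The RNA of the 4 glucose carriers, grouped as the glucose uptake step, summed to 367 ± 7.47 CPM in KO cells, against 642 ± 5.70 CPM in WT cells. This sum was 1.75-fold lower and mostly Slc2a1, since 3 of the 4 carriers were not called. Uptake itself was not measured here. Phosphofructokinase averaged 406 ± 1.32 CPM in KO and 677 ± 9.53 CPM in WT libraries, a 1.67-fold lower level. The pyruvate dehydrogenase kinases summed to 128 ± 4.51 CPM in KO and 222 ± 7.47 CPM in WT libraries, 1.73-fold lower. The PFKFB total alone rose, to 721 ± 19.3 CPM in KO cells, against 606 ± 29.5 CPM in WT cells (log2 0.25 ± 0.06; edgeR adjusted p = 0.00717). These 16 calls and their directions were unaltered when any 1 library was left out.

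**Figure D3:**
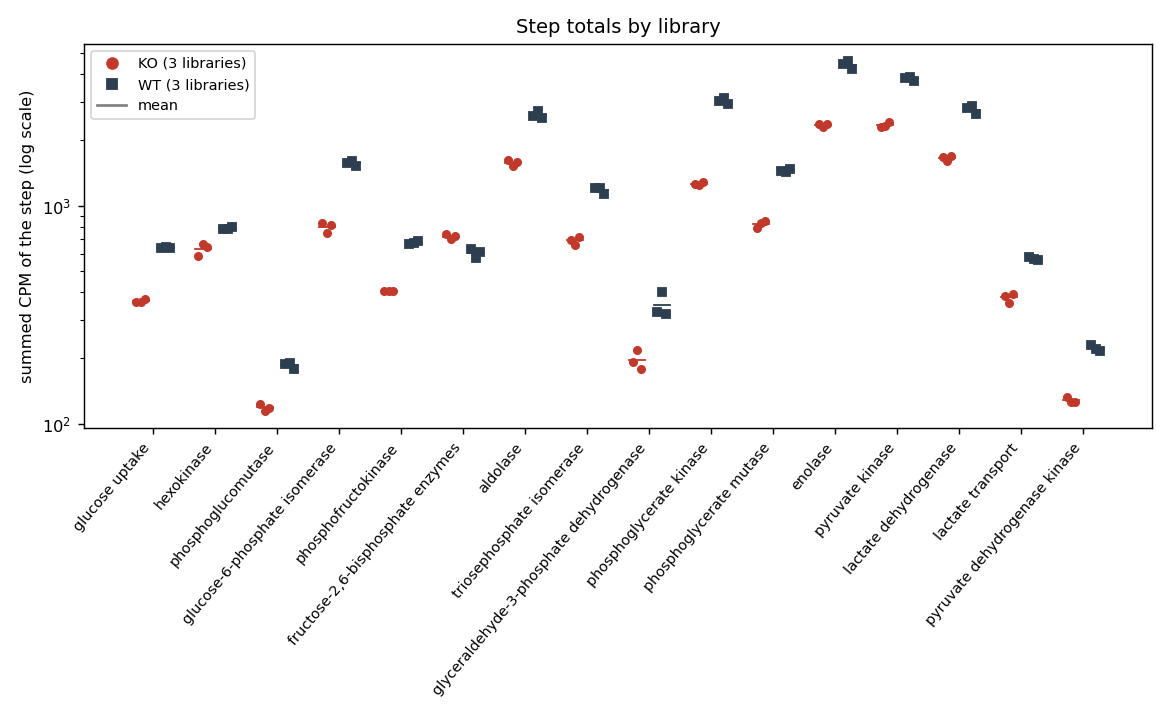
Summed CPM of the isoforms of each of 16 glycolytic steps on a log scale, with 3 KO libraries (circles) left of 3 WT libraries (squares) and a line at each mean. KO libraries lie below WT libraries at 15 steps and above them at the PFKFB step.

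Because isoforms fell unequally, the mix of isoforms within a step differed between genotypes. Each isoform's share was taken of the step's reads per base of merged exon, so that long genes do not count for more. Of 28 shares in 10 steps, 20 did not overlap between KO and WT libraries, in 8 of the steps. Each of the 20 had an exact two-sided permutation p of 0.1, the smallest that 3 against 3 libraries allow, so none can pass 0.05. Shares within a step sum to 100, so these 20 are not separate results.

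Among the 4 glucose carriers, Slc2a1 made up 63.0%, 62.0% and 63.9% in KO libraries, against 79.2%, 79.1% and 78.8% in WT libraries. Slc2a6, whose own level was not called changed, took 32.3% ± 0.94 in KO and 18.3% ± 0.11 in WT libraries (SD, n = 3 each). The share of Slc2a1 was thus 16.0 percentage points lower in KO and that of Slc2a6 14.0 points higher. With the level of Slc2a6 not called changed, its higher share goes with the fall of Slc2a1 RNA. Among the hexokinases, Hk3 led with 66.5% ± 1.46 in KO and 62.9% ± 0.80 in WT libraries. The share of Hk2 was 16.0% ± 0.85 in KO and 20.2% ± 0.84 in WT libraries, and that of Hk1 overlapped (17.5% and 17.0%; exact permutation p = 0.4). In phosphofructokinase, Pfkl took 63.6% ± 1.83 in KO and 72.1% ± 0.28 in WT libraries, and Pfkp took 31.8% ± 1.22 in KO and 24.8% ± 0.34 in WT libraries. The merged exons of Pfkp are much longer than its principal transcript, and by transcript length Pfkl and Pfkp took 51.3% and 46.3% in KO libraries, against 60.6% and 37.7% in WT libraries. The direction of each shift was the same by either length.

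By length-scaled reads, pyruvate dehydrogenase kinase was the step in which the leading isoform itself differed. Pdk1 made up 31.8%, 29.2% and 31.9% in KO libraries, against 48.4%, 47.1% and 45.3% in WT libraries. Pdk3 made up 54.5%, 53.4% and 51.2% in KO libraries, against 40.6%, 40.6% and 41.9% in WT libraries. Pdk3 therefore led in every KO library and Pdk1 in every WT library. The order held by principal transcript length (Pdk1 34.9% and Pdk3 48.2% in KO libraries, Pdk1 51.4% and Pdk3 36.3% in WT libraries). It did not hold for plain reads, of which Pdk1 had 56.3% in KO and 71.8% in WT libraries. By plain reads the leader differed at phosphofructokinase instead, where Pfkl and Pfkp took 49.0% and 49.2% in KO libraries, against 58.4% and 40.3% in WT libraries, with Pfkp ahead in KO 2 and KO 3 but not in KO 1. At steps ruled by 1 isoform the mix moved little. Aldoa took 96.4% in KO and 95.4% in WT libraries, Eno1 took 97.2% in KO and 97.9% in WT libraries, and Ldha took 99.1% in KO and 99.0% in WT libraries. The shares of the lactate carriers overlapped, with Slc16a3 at 94.2% ± 0.58 in KO and 94.5% ± 0.10 in WT libraries (exact permutation p = 0.6).

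**Figure D4:**
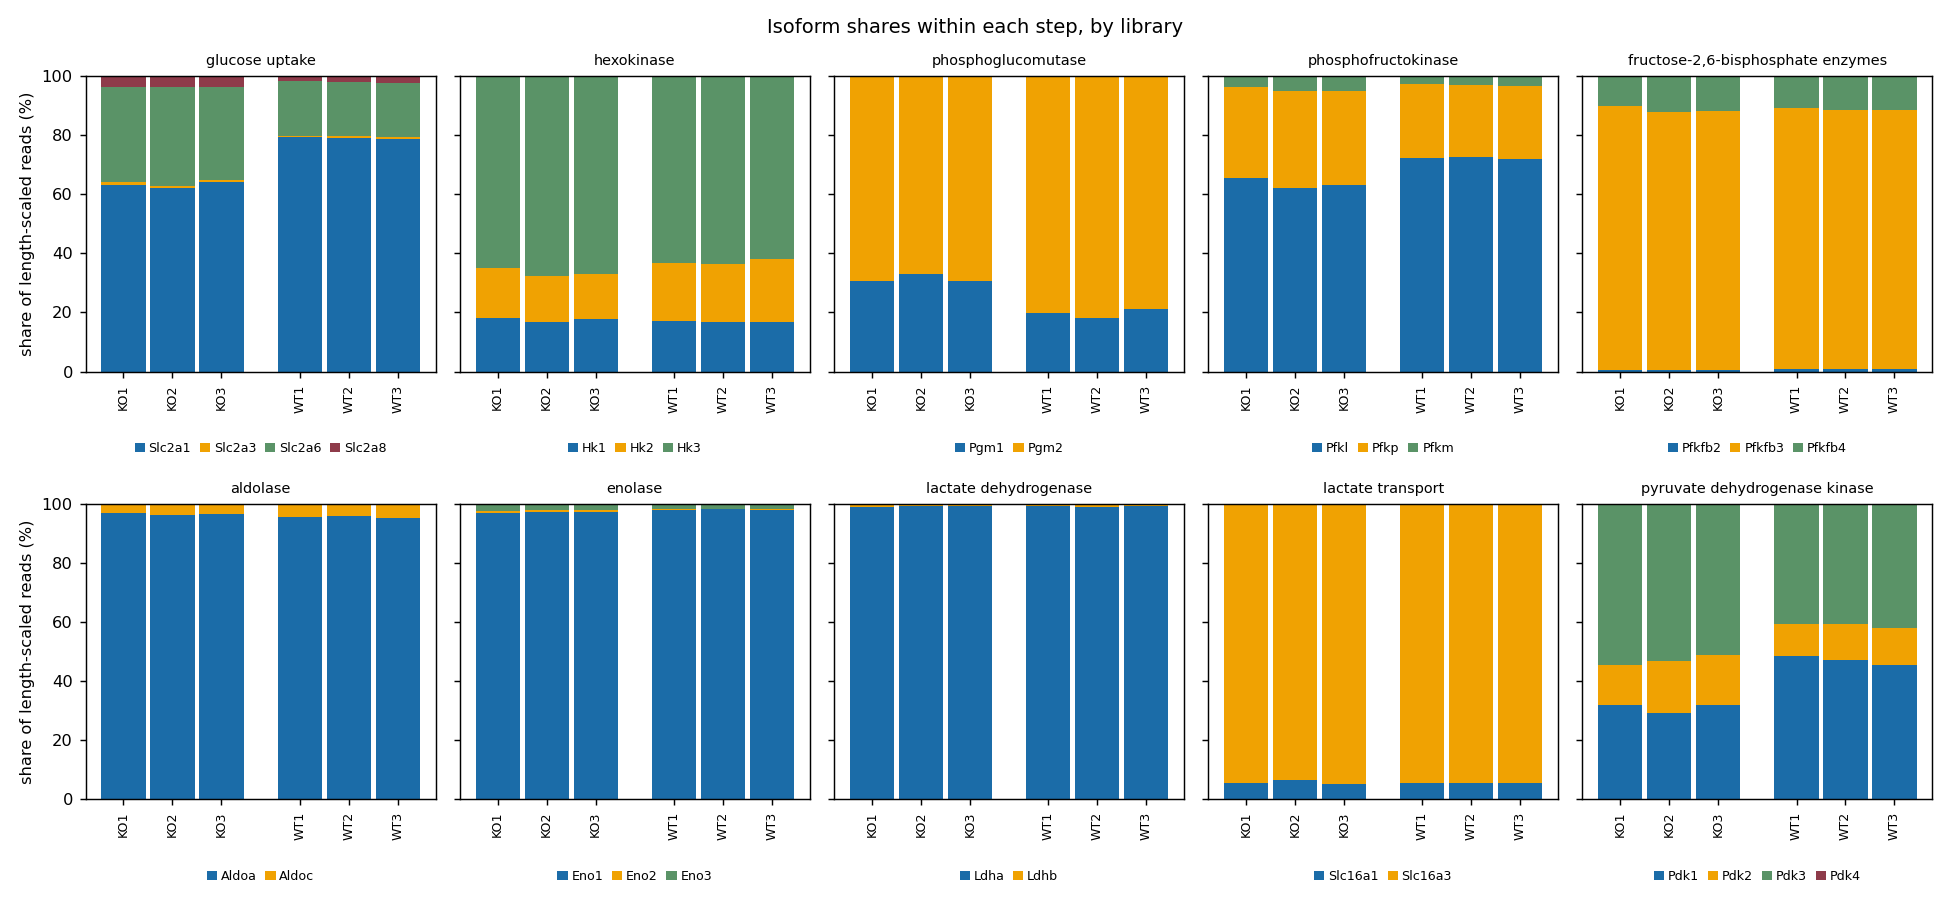
Share of each isoform, in percent of length-scaled reads, within the 10 steps that have more than 1 gene, as stacked bars for 3 KO and 3 WT libraries. The Slc2a1 segment spans 62.0% to 63.9% in KO libraries and 78.8% to 79.2% in WT libraries, and Pdk3 is the largest kinase segment in every KO library.

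Over the 35 tested genes, called or not, the change was related to how abundant a gene was. Level is given here as CPM per kb of merged exon, and change as the log2 fold change. By that length Pgk1 had 563 CPM per kb in KO and 1349 CPM per kb in WT libraries. Aldoa, Ldha, Pkm, Eno1 and Pgam1 had 416 to 520 CPM per kb in KO and 732 to 850 CPM per kb in WT libraries. The order of these genes depends on the length used, since Eno1 stands above Pgk1 by CPM and by principal transcript length. All 9 genes with a mean of at least 100 CPM per kb fell, with a median log2 fold change of -0.82. Of the 26 less abundant ones, 13 fell and 2 rose, with a median of -0.32. This split also depends on the length used. Hk3, not called, and Pfkfb3, which rose, stood below the cut at 93.1 and 80.3 CPM per kb. Their principal transcripts (3219 and 4634 bases) are shorter than their merged exons (3682 and 7561 bases). By principal transcript length both stand above 100 CPM per kb. Across the 35 genes, level and change had a Spearman correlation of -0.54 and a Pearson correlation of -0.52. Both come from the same 6 libraries, low genes have larger errors, and the genes are not independent. Over all 13249 tested genes the Spearman correlation was 0.14. Level was there the mean log2 CPM without scaling by length, so this value and that of the glycolysis genes are not directly comparable. Pdk1, Aldoc, Pfkl and Ldhb were among the less abundant genes with large falls, and Gapdh enters here with its own row only.

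**Figure D5:**
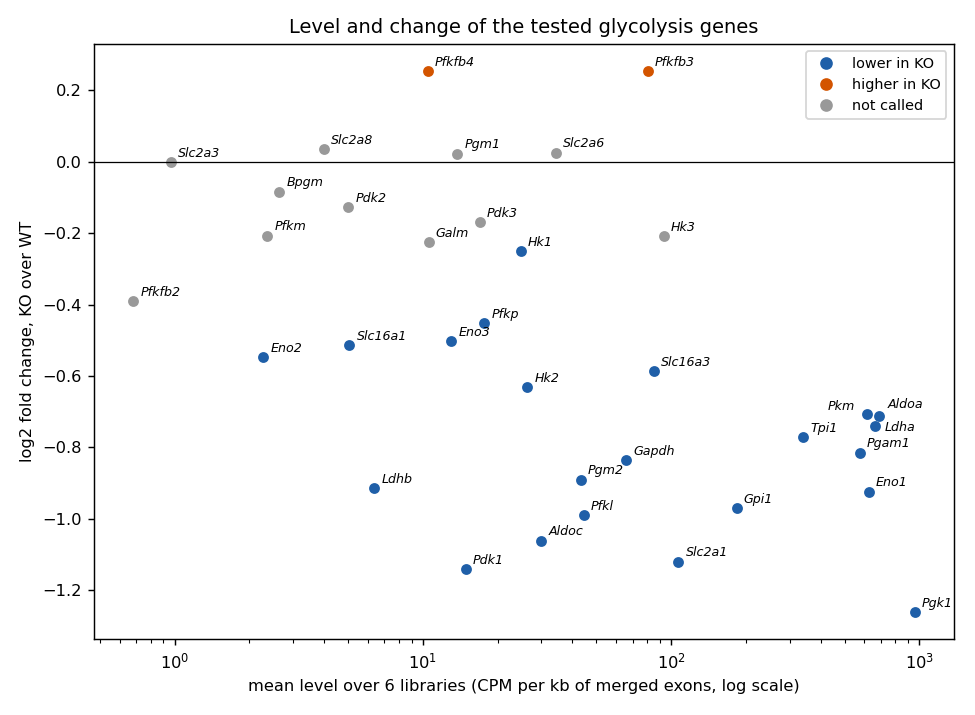
Mean level over 6 libraries (CPM per kb of merged exon, log scale) against the log2 fold change of KO over WT for the 35 tested glycolysis genes, coloured by call. The 9 genes above 100 CPM per kb are all lower in KO, while most genes with changes near 0 lie further to the left.

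Of 65 further genes around the pathway, 45 were tested, 11 fell and 4 rose, with a median log2 fold change of -0.02. Of all tested genes 12.0% were called lower and 13.8% higher, so the risers were no more frequent here than over all genes. Glycogen metabolism held most of the falls, with 6 of 10 tested genes lower and 0 higher. Gbe1, the glycogen branching enzyme, averaged 42.8 ± 2.24 CPM in KO and 89.8 ± 6.10 CPM in WT libraries (SD, n = 3 each; log2 -1.07 ± 0.07, SE; edgeR adjusted p = 9.31e-08). Gys1, glycogen synthase, averaged 82.5 ± 3.64 CPM in KO and 146 ± 6.73 CPM in WT libraries (log2 -0.82 ± 0.06; edgeR adjusted p = 3.26e-07). Ugp2, which makes the UDP-glucose that synthase uses, fell by 0.68 on the log2 scale. Pygl, a phosphorylase that breaks glycogen down, fell by 0.63 on the log2 scale. Of the 9 tested genes of the shuttles that carry reducing equivalents into mitochondria, 3 rose and 0 fell, beside the same 13.8% and 12.0% over all genes. Got1, the cytosolic aspartate transaminase, averaged 130 ± 8.06 CPM in KO and 83.6 ± 4.82 CPM in WT libraries (log2 0.63 ± 0.06; edgeR adjusted p = 8.79e-06), and Gpd2, the mitochondrial glycerol phosphate dehydrogenase, had a log2 fold change of 0.44. The genes for pyruvate carriers of mitochondria and for pyruvate dehydrogenase and its phosphatases had 1 lower and 1 higher of 10 tested, near those shares. Bsg, the chaperone that brings MCT1 and MCT4 to the surface, averaged 485 ± 8.30 CPM in KO and 625 ± 31.1 CPM in WT libraries (log2 -0.37 ± 0.06; edgeR adjusted p = 0.000592), and was the 1 of 9 tested isozymes and carriers that was called. Galk1, galactokinase, fell by 0.50 and Slc37a4, the glucose phosphate carrier of the endoplasmic reticulum, fell by 0.44 on the log2 scale. Pgam2, the muscle phosphoglycerate mutase, averaged 7.37 ± 0.34 CPM in KO and 7.16 ± 0.356 CPM in WT libraries (SD, n = 3 each) and was not called (log2 interval -0.24 to 0.32). Slc16a7, the lactate and pyruvate carrier MCT2, averaged 12.3 ± 1.71 CPM in KO and 12.5 ± 1.01 CPM in WT libraries and was not called (log2 interval -0.29 to 0.23). These 2 isoforms of steps given above were singled out after their values were seen. The count of risers among these genes varied from 2 to 4 with the library left out.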

How the data were processed

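RNA from 3 KO and 3 WT cultures of bone-marrow-derived dendritic cells was extracted with Trizol and sequenced by Illumina protocols, per the labels' protocols. The authors deposited unnormalised whole-number counts of reads for each gene symbol. The submitters' processing notes name the mm10 build and list DESeq2, HTSeq, SAMtools, HISAT, HISAT2 and TopHat2 among the tools. Not given in the sources used here are the aligner behind the table, its annotation, its strand setting and how multi-mapping reads were handled. Without a known strand setting, reads of Pfkp and Pitrm1, of Pgm1 and Itgb3bp and of Gpi1 and Gm26762, whose exons overlap on opposite strands, may not have been told apart. Pgm1 is here the gene that GENCODE gives that name, and whether the row named Pgm1 or Pgm2 counts it is not settled.

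The whole table was fitted with edgeR 4.0.16 in R 4.3.3: rows chosen by filterByExpr at a minimum count of 10 (13249 of 30587), TMM factors, the quasi-likelihood F test with genotype as the only term, Benjamini-Hochberg adjustment over all tested rows and a threshold of 0.05. CPM are TMM-scaled, and all fold changes are KO over WT, with SE. Where a symbol was repeated, the row with more reads was taken and the other 24 rows were renamed, among them a low second Aldoa row. Step totals were member rows summed before a refit. Lengths, loci and copies came from GENCODE M21 on the same build. Copies were blastn 2.17.0 matches of at least 95% identity over at least 300 bases. Shares were tested with exact permutation tests. The procedure was tested on simulated data. Replicate pairs differed by more than sampling noise, with a chi-square per degree of freedom of 4.13 to 19.5.

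The members and lists were chosen with earlier results of these data known. All members are named, with library values for those with the lowest p at each step. Up to 10 called genes of the other lists, by lowest p, are named, along with Epas1 and Hif1a. A gene that this rule would name is not reported here. Alternatives were other scalings, filters and tests (DESeq2 1.42.0, limma-voom of limma 3.58.1, robust dispersion), a replicate block, GC and length offsets and each library left out. Chosen after the data were seen were a run lacking KO 1 and WT 2 (where reads touched the most rows), adding the reads of copies, and principal transcript lengths.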

Additional observations from a re-analysis of the deposited data

How the results depend on the processing

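With any 1 library, or WT 2 and KO 1 together, left out, 22 to 25 of the 35 glycolysis genes were called, 21 to 23 of them lower and 1 to 2 higher (22 lower and 2 higher without those 2 libraries together). The step totals stayed at 15 lower and 1 higher, and the other pathway genes had 10 to 15 calls, 8 to 11 lower and 2 to 4 higher. The shares without overlap ran from 20 to 23. Each share is taken within its library, so leaving libraries out cannot lower that count, and its range is no check of stability. GC and length offsets gave 24 lower and 1 higher glycolysis gene, and 2 higher other genes. Over all genes they gave 1443 higher and 2057 lower calls, against 1826 higher and 1586 lower without them, and shifted the median gene by -0.04 on the log2 scale. The cause was not tested. Same-numbered KO and WT libraries did not deviate together (correlations of 0.015, -0.11 and 0.08), so the numbers were not taken as pairs. The replicate block kept 22 lower and 2 higher glycolysis genes, and left 2 higher other genes. No log2 fold change of a glycolysis gene that was called reversed under any alternative. Of the single-gene and step values recomputed, 1018 stayed on their side of the threshold, 8 newly passed and 7 no longer passed. Besides the losses of Pfkfb4 and Eno2 given above, Hk3 passed in 6 settings and Pfkfb2 passed with GC and length offsets (log2 -0.45). Depth limits Fbp1 and Pdk4, and genes near 10 CPM such as Ldhb and Pfkm carry the widest errors.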
